A study of Drosophila melanogaster with 20 samples.

Results

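The genes described here encode proteins that fill and release synaptic vesicles, voltage-gated ion channels, and receptors for acetylcholine and glutamate. They were 22 listed genes (*nSyb*, *Syn*, *cpx*, *Snap25*, *Rop*, *unc-13*, *Rab3*, *Rim*, *shi*, *comt*, *para*, *cac*, *Sh*, *Shab*, *Shal*, *Shaw*, *eag*, *slo*, *sei*, *VAChT*, *VGlut* and *Hk*) together with every gene whose symbol begins with nAChR, Syt, Syx or GluR (for Syt and Syx, followed by a digit) in the annotation of the array. The rule itself uses no measured level, but the genes were chosen with earlier results of these data known. Each gene was read from the probe set that names only that gene and has the highest mean over all arrays. A probe set of this kind was found for 40 genes of the 11982 represented on the array. These were 21 of the 22 listed genes, all but *comt*, which encodes the ATPase that takes used SNARE complexes apart, with 9 nAChR, 3 Syt and 7 GluR genes and 0 Syx genes. *GluRS-m*, which entered by its symbol, encodes a mitochondrial glutamyl-tRNA synthetase and not a receptor.

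At a chemical synapse, an action potential carried by sodium and potassium channels opens calcium channels at the active zone, and synaptotagmins sense the calcium that enters. Vesicles already docked by SNARE proteins and their partners then fuse and release transmitter, which opens receptor channels on the receiving cell. In the third instar eye disc, photoreceptors differentiate behind the morphogenetic furrow and send axons to the brain, while their synapses form later.

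Eye-antennal imaginal discs were dissected from *Drosophila melanogaster* larvae of the third instar that had been raised at 18 °C and kept at 28 °C for the last 24 hours, and the total RNA of 1 sample went on each Affymetrix array. In Ato gain-of-function (Ato GOF), UASato was driven by Gal4/7 (Gal4/7 x UASato, 3 arrays) or by atoGal4 (atoGal4 x UASato, 3 arrays), so that *ato*, the proneural gene that starts R8 photoreceptor formation, was overexpressed. The cells in which Gal4/7 drives expression are not given in the sources used here. In Ato loss-of-function (Ato LOF), the discs were ato-/- (3 arrays), from a stock that the methods describe as *ato1* over a heat-shock *hid* chromosome, heat-shocked on consecutive days from the first instar. In Sens gain-of-function (Sens GOF), atoGal4 drove UASsens (3 arrays). The 8 controls were 2 arrays each of Gal4/7, atoGal4, UASato and the wild type cantonS. No UASsens control line was analysed here, and no source used here says that controls were heat-shocked, so heat shock and genotype cannot be told apart in Ato LOF. The design calls the arrays of a line biological repeats.

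Values are on the log2 scale, and a gene was called changed at an adjusted p under 0.05. The share of all genes called was counted only in the main fits, with all arrays of a comparison. Counts of members with an array left out or a setting changed have no such share beside them, and nothing is read from them. The *ato* transcript lay between 12.22 and 12.61 on Gal4/7 x UASato arrays and between 11.30 and 11.62 on atoGal4 x UASato arrays, against 9.27 to 10.01 on the controls. In ato-/- discs *ato* lay between 9.99 and 10.35, so its level did not mark the mutant. There *sens*, which acts after *ato*, was at 6.86, 8.11 and 4.50 on arrays 1, 2 and 3, against 7.99 to 8.70 on the controls. The *sens* value of ato-/- array 2 thus fell among the controls, although its summed photoreceptor markers (*elav*, *chp*, *gl*, *boss* and *sev*) were the lowest of all 20 arrays at 9.35. In Sens GOF, *sens* lay between 11.68 and 12.18. Sens GOF arrays 1 and 2 were more alike than any other pair of the series (r = 0.9985 across probe sets, against 0.9927 for the next pair within a line), and calls of members in Sens GOF are also given with these arrays averaged as 1. The 4 comparisons with controls share the same 8 control arrays.

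The probe sets of 21 genes lay at or above the median of all probe sets (5.47) and those of 19 lay below it. Signal also depends on the probes, so levels are compared only between arrays and not between genes. Of the 40, 16 were at or below 4.92, the 95th percentile of 112 olfactory and gustatory receptor genes, and changes of these dim probe sets may not be detectable. The map of all 40 genes shows their values in the 8 lines relative to the controls.

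**Figure D1:**
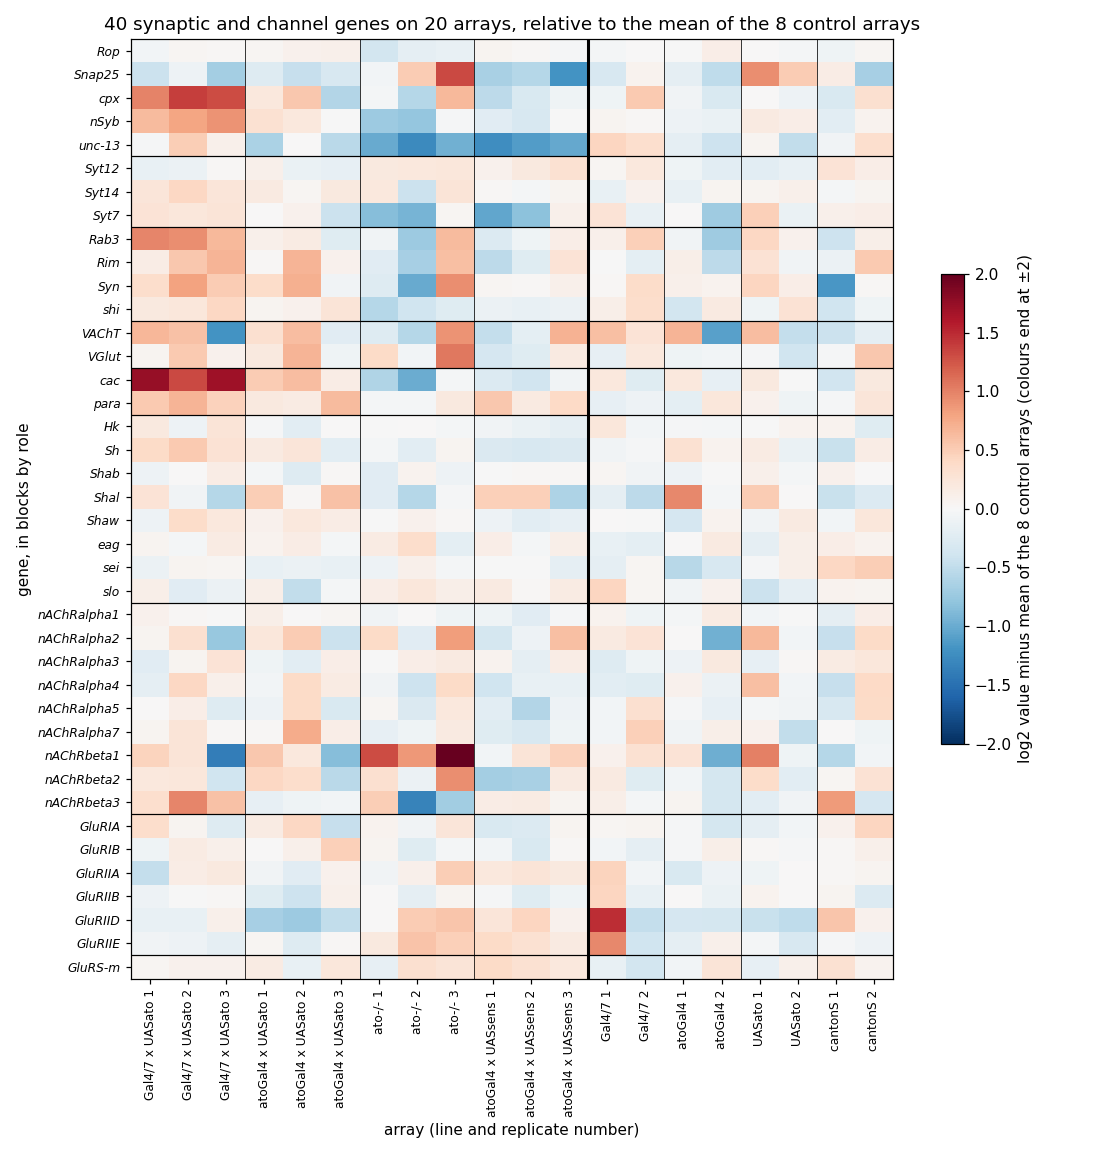
Log2 value of each of the 40 genes (rows, in blocks by role) on each of the 20 arrays (columns, by line and replicate number), minus the mean of the 8 control arrays; red is higher and blue lower, and colours end at ±2. The cells of *cac*, *cpx* and *nSyb* are red under Gal4/7 x UASato, as are those of *Rab3*, which was not called. Those of *unc-13* are blue under ato-/- and atoGal4 x UASsens, and *nAChRbeta1* is red on all 3 ato-/- arrays. Some genes not called against controls have redder cells than *nSyb*, such as *Snap25* on ato-/- array 3 and *GluRIID* on Gal4/7 control array 1.

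With the Gal4/7 driver, 4 of the 40 genes were higher than in controls and 0 were lower. They were the calcium channel gene *cac*, the sodium channel gene *para*, and 2 genes of the fusion machinery, *cpx* and *nSyb*. Of all genes, 1.96% were called higher and 0.526% lower. The median log2 fold change was 0.06 over the members and 0.01 over all genes, so the list as a whole was hardly displaced. Another 5 members had an unadjusted p under 0.05, and all of them were positive. The share of all genes at an unadjusted p was not counted, here or below. Nothing about the members is therefore read from counts at that threshold. In bulk discs, more cells that express a gene and more RNA per cell cannot be told apart, nor can fewer cells and less RNA per cell.

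*cac* encodes the pore of the presynaptic calcium channel that triggers release. It measured 7.63, 7.21 and 7.58 on the Gal4/7 x UASato arrays, against a lowest control of 5.51, a median of 5.98 and a highest of 6.11. Every Gal4/7 x UASato array was above every control by more than the whole control range. The log2 fold change was 1.58 (SE 0.15, adjusted p = 0.000223), a 2.99-fold increase. A second, much dimmer *cac* probe set, with a mean of 3.56, changed by 0.35 (adjusted p = 0.174).

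*cpx* encodes complexin, which clamps SNARE complexes and also promotes fast fusion. Its values were 8.63, 9.02 and 8.95 in Gal4/7 x UASato, against 7.34, 7.56 and 8.17 as the lowest, median and highest control. The groups did not overlap, and the highest control was a Gal4/7 array. The increase was 2.34-fold (log2 1.23, SE 0.17, adjusted p = 0.00279), and the other *cpx* probe set rose by 0.90 (adjusted p = 0.0055).

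*nSyb* encodes neuronal synaptobrevin, the SNARE protein of the vesicle membrane. It was at 8.17, 8.33 and 8.43 in Gal4/7 x UASato, and controls ran between 7.32 and 7.71 with a median of 7.58. All 3 arrays again lay above all controls, and the increase was 1.71-fold (log2 0.77, SE 0.09, adjusted p = 0.00115). These 3 genes were called in each of the 21 alternative settings tried.

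*para*, the only voltage-gated sodium channel gene of the fly, had 5.04, 5.20 and 4.99 in Gal4/7 x UASato, against 4.33, 4.47 and 4.77 as the lowest, median and highest control. The probe set was dim, the arrays did not overlap the controls, and the increase was 1.47-fold (log2 0.55, SE 0.11, adjusted p = 0.0202). The call was lost without Gal4/7 x UASato array 1, 2 or 3 (adjusted p = 0.0566, 0.157 and 0.0696) and with the replicate number as a block (0.0600).

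Among the members that did not pass, *Rab3*, the small GTPase of synaptic vesicles, had the largest log2 fold change at 0.85 (adjusted p = 0.105), with 8.25, 8.22 and 7.92 on the Gal4/7 x UASato arrays, against 6.57, 7.38 and 7.76 as the lowest, median and highest control. *Syt14* had 4.49, 4.66 and 4.48, against 4.08 to 4.34 in controls (log2 0.30, adjusted p = 0.0876). In both cases all 3 arrays were above all controls, but the adjusted p missed the threshold. *Syn*, which encodes the synapsin that tethers vesicles, and *Rim*, which encodes an active zone scaffold, had log2 fold changes of 0.55 and 0.45, also not called.

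**Figure D2:**
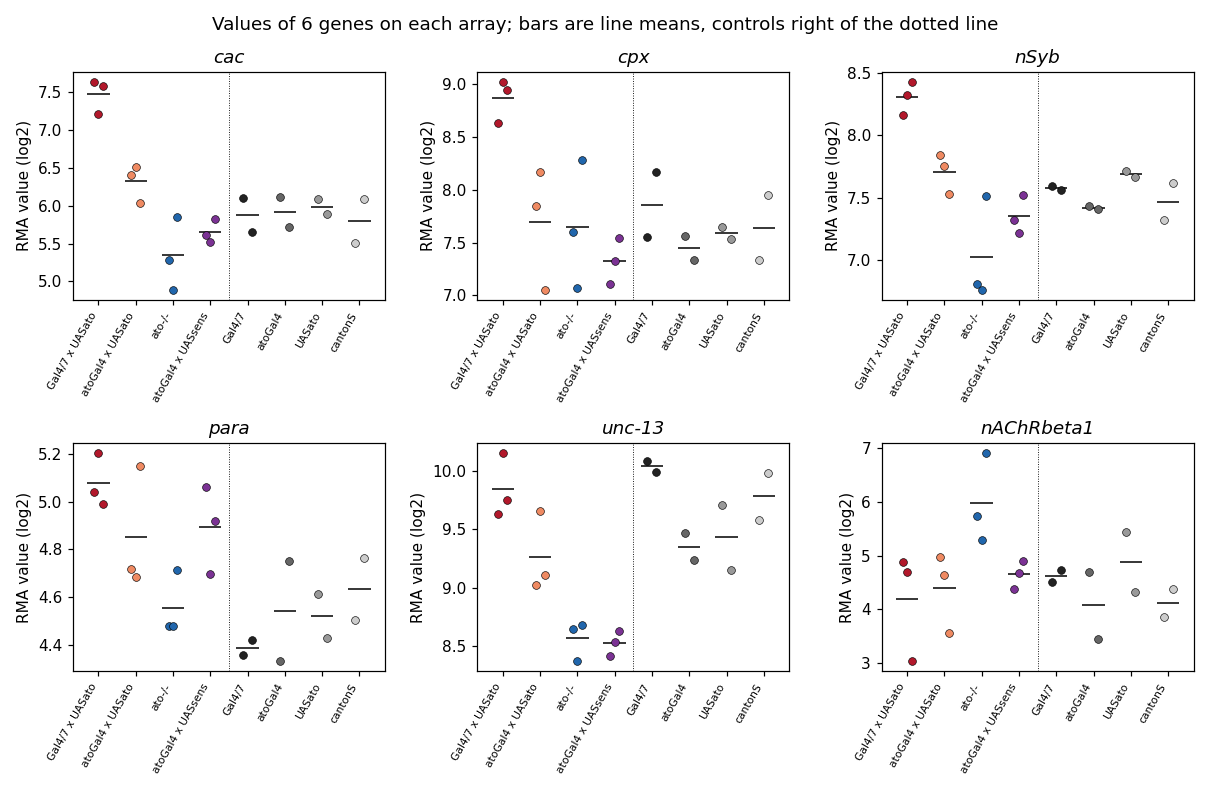
RMA values (log2) of 6 genes on each array, by line, with the line mean as a bar and the control lines right of the dotted line. Gal4/7 x UASato is above all controls for *cac*, *cpx*, *nSyb* and *para*, and ato-/- and atoGal4 x UASsens are below all controls for *unc-13*.

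Markers of several cell types differed on the same arrays. The summed photoreceptor markers were at 12.66 to 12.81 in Gal4/7 x UASato, against 11.91 to 12.31 in controls, with *boss* higher by 2.56, *chp* higher by 1.60 and *sev* lower (log2 −2.14). The summed hemocyte markers were at 11.77, 12.54 and 11.86, against 10.17 to 11.50 in controls, and 2 of the 5, *Hml* and *NimC1*, were called higher (log2 1.57 and 1.58). Of 4 glial markers, *gcm* and *moody* were lower (log2 −1.26 and −0.54), and of 5 markers of the eye-antennal disc *so* was (−0.76). The glial marker *repo* went the other way without being called, at 9.59, 9.87 and 9.84, against 8.06 to 9.54 in controls. The summed glial markers, at 11.03 to 11.45, lay within the controls at 10.87 to 11.86. The fat body sum was 9.45 on array 2, against 13.81 to 15.42 in controls. The salivary gland sum was 15.80, 7.17 and 7.02 on arrays 1, 2 and 3, against 7.56 to 15.86 in controls, of which 2 were below 9. The brain neuron sums were 8.18, 7.82 and 6.89, against 6.90 to 8.31 in controls, and 0 of the 5 measured markers were called. Array 3, with the lowest brain neuron sum of the series, had *cac* at 7.58 and *cpx* at 8.95. The part of any of these cell types in the increases was not tested.

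With the atoGal4 driver, 0 of the 40 genes were called in either direction by limma, where 0.0835% of all genes were called higher and 0.00835% lower. At an unadjusted p under 0.05, 2 were higher and 0 lower. *cac* had 6.41, 6.51 and 6.04 on the atoGal4 x UASato arrays, of which the first and the second were above the highest control (log2 0.43, adjusted p = 0.529). *cpx* had 7.85, 8.17 and 7.06, which spread wider than the controls (log2 0.06). *nSyb* had 7.84, 7.75 and 7.53 (log2 0.17) and *para* 4.72, 4.68 and 5.15 (log2 0.33). The median over the members was 0.06 on the log2 scale, against 0.01 over all genes.

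When the 6 Ato GOF arrays were pooled, 0 members were called, where 0.943% of all genes were called higher and 0.284% lower, and 6 were higher at an unadjusted p under 0.05. *cac* and *para* came nearest, with log2 fold changes of 1.00 (adjusted p = 0.0604) and 0.44 (adjusted p = 0.054). *nSyb* had 0.47 (adjusted p = 0.119) and *cpx* 0.64 (adjusted p = 0.344). Without atoGal4 x UASato array 3, *cac* (adjusted p = 0.0152), *nSyb* (0.0277) and *cpx* (0.0474) were called higher.

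That *cac* passed with 1 driver and not with the other did not by itself show a difference between drivers, so the difference was fitted directly as the change of Gal4/7 x UASato against Gal4/7 minus the change of atoGal4 x UASato against atoGal4. None of the 40 genes was called, where 0.0835% of all genes were, and 3 had an unadjusted p under 0.05. The largest difference was that of *cac*, 1.20 on the log2 scale (SE 0.30, adjusted p = 0.301). For *cpx* it was 0.76 (adjusted p = 0.724) and for *nSyb* 0.44 (adjusted p = 0.530). Each driver had only 2 arrays of its own as the base here.

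**Figure D3:**
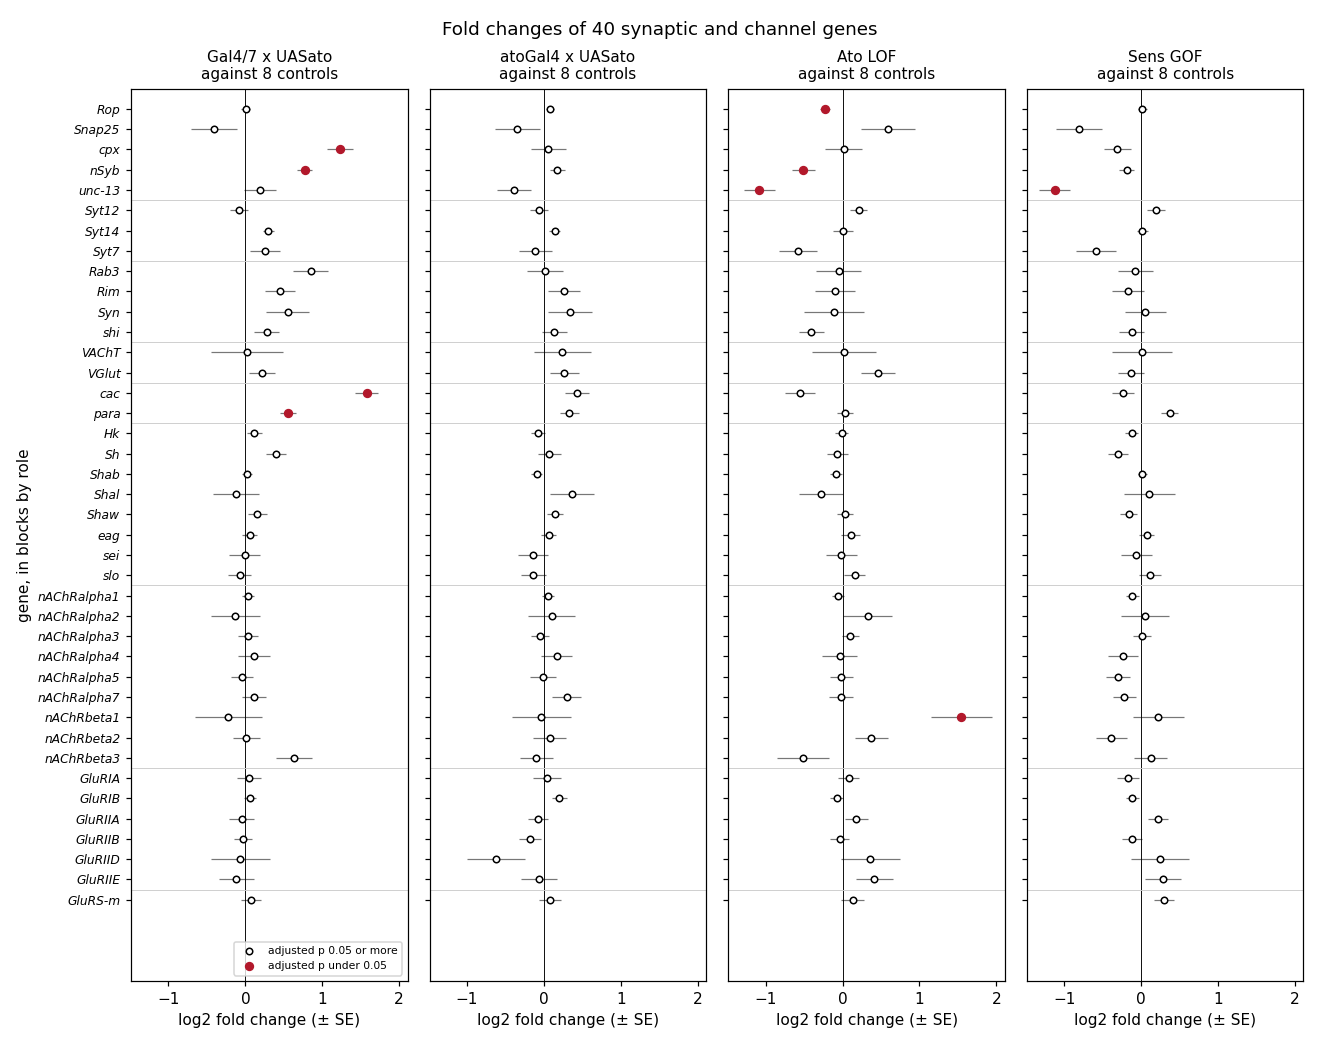
Log2 fold change (points, ± SE) of each of the 40 genes against the 8 controls in 4 panels, Gal4/7 x UASato, atoGal4 x UASato, Ato LOF and Sens GOF; filled points have an adjusted p under 0.05 and open points do not. There are 4 filled points in the Gal4/7 x UASato panel, 0 in atoGal4 x UASato, 4 in Ato LOF and 1 in Sens GOF.

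In ato-/- discs, 3 of the 40 genes were lower and 1 was higher. The lower ones were *unc-13*, *nSyb* and *Rop*, 3 of the 5 SNARE proteins and partners, and the higher one was *nAChRbeta1*, a subunit of the nicotinic acetylcholine receptor. The other 2 of the 5, *Snap25* and *cpx*, had log2 fold changes of 0.59 and 0.02 and were not called. Lower calls made up 7.50% of the members, where 10.1% of all genes were called lower, and higher calls 2.50%, where 6.34% of all genes were. The members' share of calls was therefore at or below the background in both directions. Their median log2 fold change was −0.01, against −0.02 over all genes, and 6 members were lower and 1 higher at an unadjusted p under 0.05.

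*unc-13* encodes a priming factor that opens syntaxin so that SNARE complexes can form. It was at 9.63, 10.15 and 9.75 in Gal4/7 x UASato and at 9.02, 9.66 and 9.11 in atoGal4 x UASato, neither called. It measured 8.65, 8.38 and 8.69 in ato-/- discs, against a lowest control of 9.15, a median of 9.65 and a highest of 10.09. All ato-/- arrays were below all controls, among which the 2 Gal4/7 arrays were high (10.09 and 9.99) and the UASato 2 and atoGal4 2 arrays low (9.15 and 9.24). The decrease was 2.12-fold (log2 −1.08, SE 0.20, adjusted p = 0.00566), and the call held in each of the 21 alternative settings, with log2 fold changes between −1.21 and −0.98.

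*nSyb* measured 6.81, 6.76 and 7.51 in ato-/- discs, against 7.32, 7.58 and 7.71 as the lowest, median and highest control. Arrays 1 and 2 were below all controls and array 3 was among them (log2 −0.51, SE 0.15, adjusted p = 0.0434). *Rop* encodes the fly Munc18 protein, which binds syntaxin. It was at 8.86, 9.04 and 9.07 in ato-/- discs, against 9.13, 9.22 and 9.36 as the lowest, median and highest control, so that all 3 arrays were below all controls, by little (log2 −0.23, SE 0.07, adjusted p = 0.0395). Both calls were lost when any 1 array was left out other than cantonS 1 or ato-/- 3, which left adjusted p between 0.0530 and 0.203 for *nSyb* and between 0.0508 and 0.189 for *Rop*. Both were also lost against cantonS alone.

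*nAChRbeta1* measured 5.73, 5.29 and 6.90 in ato-/- discs, against 3.45, 4.45 and 5.43 as the lowest, median and highest control. Arrays 1 and 3 were above all controls and array 2 was among them. The log2 fold change was 1.55 (SE 0.40, adjusted p = 0.0276). The control mean, 4.42, lay below the mark of 4.92 set by the chemoreceptor genes, so the size of the increase is uncertain. The call was lost without ato-/- array 1 (adjusted p = 0.0727) or array 3 (0.122), with the replicate number as a block (0.107), against cantonS alone (0.135) and by the methods' t-test with Benjamini-Hochberg adjustment (0.0551), and the other *nAChRbeta1* probe set, with a mean of 3.80, changed by 0.08 (adjusted p = 0.606). Without ato-/- array 3, 5 members were lower and 0 higher: *Rop*, *nSyb* and *unc-13*, and with them *Syt7* (log2 −0.89, adjusted p = 0.0421) and *cac* (log2 −0.80, adjusted p = 0.0182). Without ato-/- array 2, the array with *sens* among the controls, *unc-13* was lower and *nAChRbeta1* higher (log2 −0.98 and 1.89, adjusted p = 0.0389 and 0.0348).

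Markers of several cell types differed in these discs. All 5 photoreceptor markers were lower, and their sum lay between 9.35 and 9.97 in ato-/- discs, against 11.91 to 12.31 in controls. The sum of the 5 brain neuron markers measured of 6 was 8.55, 8.39 and 9.56 on ato-/- arrays 1, 2 and 3, all above the controls at 6.90 to 8.31. Within that list *ChAT*, which makes acetylcholine, was at 6.50, 5.85 and 6.98, against 4.17 to 5.92 in controls, and *Gad1*, which makes GABA, was at 7.47, 7.28 and 8.88, against 3.80 to 7.22. *Gad1* was the 1 of the 5 that was called higher, and *ChAT* did not pass (log2 1.16, adjusted p = 0.0820). Lower were *gcm* and *moody* of 4 glial markers (log2 −1.59 and −0.55), *eya* and *so* of 5 eye-antennal disc markers (−1.42 and −1.02), *dpn* of 4 neuroblast markers (−0.47) and *NimC1* of 5 hemocyte markers (−2.0). The glial sum, 11.22 to 11.82, lay within the controls at 10.87 to 11.86, with *Gs2* at 11.38, 10.43 and 10.67, against 9.51 to 11.10. The eye-antennal disc sum, 11.65 to 11.86, was below the controls at 12.04 to 12.71. Within that list *ey* was not lower, at 9.62, 9.76 and 9.61, against 8.82 to 9.70. Eye-antennal discs are attached to the brain by the optic stalk. The part of brain tissue or of any other cell type in the values of *nAChRbeta1* and of the other members was not tested.

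Over all 20 arrays, *nAChRbeta1* was highest on the array with the highest brain neuron sum, ato-/- 3, and its 4 lowest values fell on the 4 arrays with the lowest sums. These were Gal4/7 x UASato 3 (3.04, at a sum of 6.89), atoGal4 x UASato 3 (3.57, at 7.24), atoGal4 2 (3.45, at 6.90) and cantonS 1 (3.86, at 7.00). *VAChT*, the vesicular acetylcholine transporter, which shares its locus with *ChAT*, was at 3.77 on Gal4/7 x UASato 3 and 5.87 on ato-/- 3, its lowest and highest values. It did not follow the sum on every array. On ato-/- 2 *VAChT* was low at 4.395 although the sum was 8.39, below its values on cantonS 1 (4.543) and atoGal4 x UASato 3 (4.744). *nAChRalpha2* had its highest value, 6.53, on ato-/- 3 as well, and its lowest, 4.73, on atoGal4 2. Within Gal4/7 x UASato alone, *VAChT* spanned 3.77 to 5.64, *nAChRbeta1* 3.04 to 4.87 and *nAChRalpha2* 4.93 to 6.02. In the plot against the brain neuron markers these 3 cholinergic genes are low on the arrays with the lowest sums, Gal4/7 x UASato 3 and atoGal4 2. *cpx* was high on Gal4/7 x UASato 3 (8.95) but low on atoGal4 2 (7.34) and cantonS 1 (7.34). Its lowest value of all 20 arrays, 7.06, was on atoGal4 x UASato 3. The 3 cholinergic genes were picked after their values had been seen, and not all nicotinic subunits follow them. *nAChRalpha3* had its highest value of all 20 arrays, 5.87, on Gal4/7 x UASato 3, where the sum was lowest. *nAChRbeta3* was at 7.96 on that array and at 6.68 on ato-/- 3, while *nAChRbeta2* had its highest value, 5.84, on ato-/- 3.

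**Figure D4:**
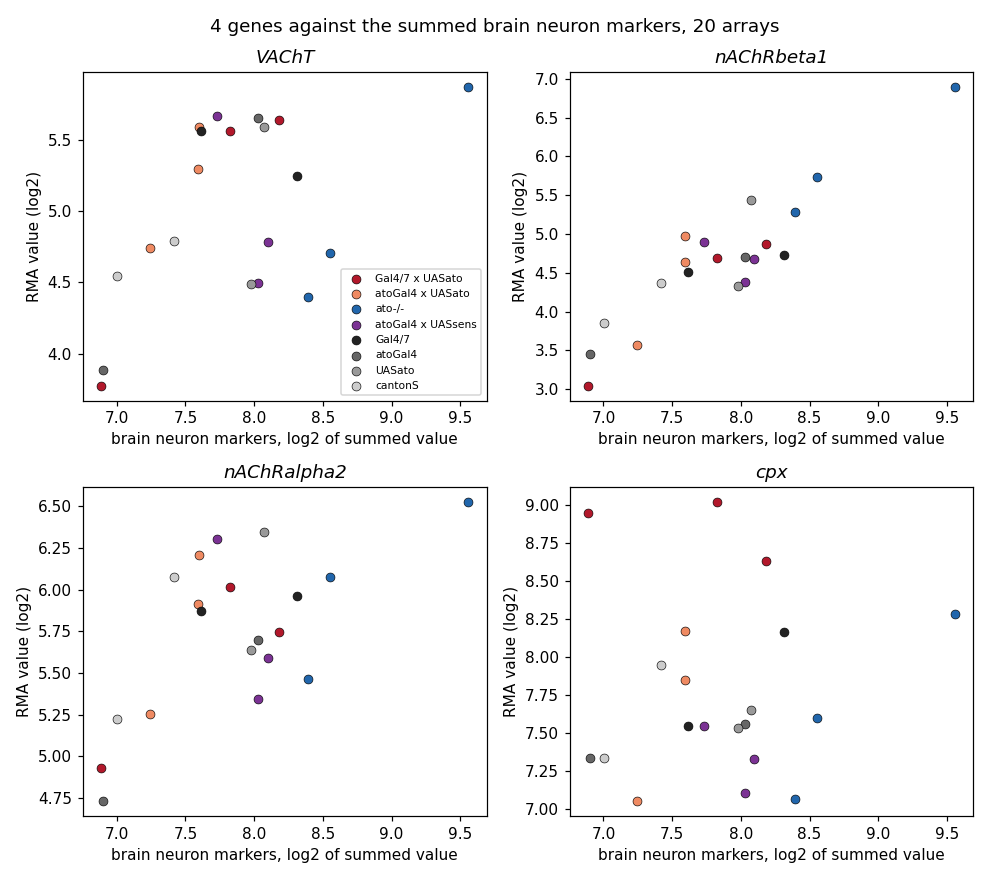
RMA value (log2) of *VAChT*, *nAChRbeta1*, *nAChRalpha2* and *cpx* on each of the 20 arrays, coloured by line, against the log2 of the summed brain neuron markers on the same array. The ato-/- 3 array lies far right at 9.56 with the highest values of the first 3 genes. Their lowest values fall on Gal4/7 x UASato 3 (sum 6.89) or atoGal4 2 (sum 6.90). *VAChT* is also low (4.395) at a high sum (8.39) on ato-/- 2. *cpx* is high on Gal4/7 x UASato 3 (8.95) but lowest on atoGal4 x UASato 3 (7.06, at a sum of 7.24).

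The remaining members did not pass in ato-/- discs. *shi* encodes dynamin, which pinches vesicles off in endocytosis, and was at 9.30, 9.33 and 9.52 in Gal4/7 x UASato, at 9.17, 9.19 and 9.36 in atoGal4 x UASato, at 8.53, 8.72 and 8.86 in ato-/- discs and at 8.99, 8.97 and 9.0 in Sens GOF, against 8.70, 9.12 and 9.47 as the lowest, median and highest control. Only ato-/- array 1 was outside the controls on the low side (log2 −0.41, adjusted p = 0.136). The 2 other *shi* probe sets had −0.22 (adjusted p = 0.268) and −0.94 (adjusted p = 0.0611).

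*Snap25*, the SNARE protein of the plasma membrane, was at 8.16, 8.50 and 7.91 in Gal4/7 x UASato, at 8.33, 8.13 and 8.28 in atoGal4 x UASato, at 8.54, 9.09 and 9.91 in ato-/- discs and at 7.94, 8.02 and 7.39 in Sens GOF, against 7.93, 8.54 and 9.52 as the lowest, median and highest control. The highest controls were the UASato arrays, 9.52 and 9.10, and the ato-/- and control values overlapped (log2 0.59, adjusted p = 0.31). *cpx* was at 7.60, 7.07 and 8.29 and *para* at 4.48, 4.48 and 4.71 in ato-/- discs, neither called. *cac* was at 5.28, 4.89 and 5.85 in ato-/- discs (log2 −0.55, adjusted p = 0.0872), and *Syt7*, a synaptotagmin, at 5.76, 5.67 and 6.65, against 5.89 to 7.09 in controls (log2 −0.58, adjusted p = 0.156). For *cac*, *Syt7* and *nSyb*, the values of ato-/- arrays 1 and 2 were below all controls, while that of array 3 was among them.

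In Sens GOF, 1 of the 40 genes was lower and 0 were higher, where 2.21% of all genes were called lower and 1.70% higher. That gene was again *unc-13*. It measured 8.42, 8.54 and 8.63 in atoGal4 x UASsens discs, all below the lowest control of 9.15, and the decrease was 2.18-fold (log2 −1.12, SE 0.20, adjusted p = 0.014). The call was lost with Sens GOF arrays 1 and 2 averaged (adjusted p = 0.0775), without array 1 or array 2 (0.0851 and 0.0727), with the replicate block (0.0528) and against the atoGal4 controls alone (log2 −0.83, adjusted p = 0.0672). Without cantonS array 1, the potassium channel gene *Sh* was also called lower (log2 −0.36, adjusted p = 0.047), a call lost when arrays 1 and 2 were averaged as well (0.159).

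The median log2 fold change of the members in Sens GOF was −0.09, against −0.01 over all genes, and 4 were lower and 2 higher at an unadjusted p under 0.05. *Snap25* had the next largest log2 fold change at −0.81 (adjusted p = 0.176) and *Syt7* had −0.58 (adjusted p = 0.253), with 5.57, 5.78 and 6.71 on the atoGal4 x UASsens arrays. *para* was at 5.06, 4.70 and 4.92 (log2 0.37, adjusted p = 0.103). *Rop* was at 9.28, 9.24 and 9.20, within the controls, *cpx* at 7.11, 7.33 and 7.55, *nSyb* at 7.32, 7.21 and 7.53, and *cac* at 5.62, 5.52 and 5.82, none of them called. *nAChRbeta1* was at 4.38, 4.68 and 4.89, all within the controls, and it had 4.87, 4.69 and 3.04 in Gal4/7 x UASato and 4.97, 4.63 and 3.57 in atoGal4 x UASato. *Rop* had 9.17, 9.26 and 9.24 in Gal4/7 x UASato and 9.27, 9.31 and 9.33 in atoGal4 x UASato, also within the controls.

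Set against atoGal4 x UASato, which shares the driver, Sens GOF had 1 member higher and 0 lower, where 2.12% of all genes were called higher and 3.74% lower. *GluRIID*, an essential subunit of the glutamate receptor of the larval neuromuscular junction, measured 4.68, 4.86 and 4.52 in Sens GOF and 3.77, 3.71 and 3.95 in atoGal4 x UASato. The groups did not overlap (log2 0.87, SE 0.12, adjusted p = 0.0145), and all 6 values lay below 4.92, where the size of a change is uncertain. With Sens GOF arrays 1 and 2 averaged the adjusted p was 0.0642, and it was over the threshold in 4 of the 6 fits without 1 array. The controls spanned 3.94 to 5.91, which holds all 3 Sens GOF arrays, and atoGal4 x UASato arrays 1 and 2 lay below that range. The nearest members in the other direction were *cac* (log2 −0.67, adjusted p = 0.0532) and *unc-13* (log2 −0.74, adjusted p = 0.063).

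Of 5 muscle markers, *Mlc2* and *up* were measured, and their sum was 10.16, 10.22 and 8.43 in Sens GOF and 7.21, 6.77 and 7.91 in atoGal4 x UASato. Neither passed in this comparison (log2 1.88 and 2.4, adjusted p = 0.144 and 0.0518). The highest sum of the series, 10.89, was on Gal4/7 control array 1, which also had the highest values of *GluRIID* (5.91), *GluRIIE* (5.68) and *GluRIIB* (4.56) among the controls. The part of muscle in these values was not tested. *GluRIID* and *GluRIIE* are neighbours that overlap in the annotation, so their values may not be independent.

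The widest contrast of the design, Ato LOF against Ato GOF, called 5 members lower and 5 higher, where 15.8% of all genes were called lower and 10.7% higher. The members' share was 12.5% in each direction. Their median log2 fold change was −0.11, against −0.03 over all genes. Lower were *cac* (log2 −1.55, adjusted p = 0.0184), *nSyb* (−0.98, 0.0156), *unc-13* (−0.98, 0.0144), *shi* (−0.61, 0.00252) and *Rop* (−0.27, 0.0179). *shi* and *Rop* did not overlap between the groups, at 8.53 to 8.86 and 8.86 to 9.07 in Ato LOF and at 9.17 to 9.52 and 9.17 to 9.33 in Ato GOF.

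Higher in the same contrast were *nAChRbeta1* (log2 1.67, adjusted p = 0.0386), *Snap25* (0.96, 0.0243), the receptor subunits *GluRIID* (0.71, 0.0348) and *GluRIIE* (0.51, 0.00674), and *Syt12* (0.28, 0.0243), a synaptotagmin with a very dim probe set. *GluRIIE* was at 4.91, 5.29 and 5.20 in Ato LOF and between 4.46 and 4.75 in Ato GOF, with no overlap, and the muscle markers *Mlc2* and *up* were higher too (log2 2.11 and 1.54), as was *Gad1* (log2 2.46). The part of muscle or brain tissue in these increases was not tested. The calls of *shi* and *GluRIIE* held whichever array was left out. Those of *nAChRbeta1*, *GluRIID* and *Syt12* were lost in 4, 5 and 3 of the 9 such fits, and those of *cac* and *nSyb* in 2. Without ato-/- array 1 there were 3 lower and 3 higher members, without array 2 there were 2 and 2, and without array 3 there were 8 and 2.

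Between the 4 control lines, 0 of the 40 genes were called, where 0.818% of all genes were, although 3 members had an unadjusted p under 0.05. The widest range of line means was that of *Snap25*, 1.06 (adjusted p = 0.489). *sei*, which encodes a potassium channel of the ERG family, had a range of 0.90 (adjusted p = 0.149). It measured 7.96 and 8.18 in Gal4/7, 7.58 and 7.81 in atoGal4, 8.10 and 8.26 in UASato and 8.55 and 8.63 in cantonS, so that both wild type arrays lay above the arrays of the 3 transgenic lines. On the other arrays *sei* was at 8.02, 8.18 and 8.17 in Gal4/7 x UASato, at 7.98, 8.02 and 7.98 in atoGal4 x UASato, at 8.03, 8.23 and 8.09 in ato-/- discs and at 8.13, 8.12 and 7.96 in Sens GOF, all within the controls. In a single fit of all 20 arrays, which takes the spread from every line, *sei* was called between control lines (adjusted p = 0.00099).

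None of the 8 potassium channel genes was called against controls with either driver, in Ato LOF or in Sens GOF with all arrays, though *Sh* was in Sens GOF without cantonS array 1. They were *Sh*, *Shab*, *Shal* and *Shaw*, which founded the voltage-gated families, *Hk*, which encodes the beta subunit of Shaker, *eag*, *sei* and the calcium-activated *slo*, and their median log2 fold changes in these 4 comparisons lay between −0.02 and 0.04. *Sh* had the largest log2 fold change of them in Gal4/7 x UASato at 0.40 (adjusted p = 0.235). Of the 9 nicotinic subunits, only *nAChRbeta1* in Ato LOF was called against controls with all arrays. *nAChRbeta3* had 7.72, 8.35 and 7.96 in Gal4/7 x UASato and 7.87, 6.05 and 6.68 in ato-/- discs, against 7.02 to 8.24 in controls (log2 0.63 and −0.51, neither called). The control at 8.24 was cantonS array 1, and without it *nAChRbeta3* was called higher in Gal4/7 x UASato (log2 0.75, adjusted p = 0.0272). None of the 6 glutamate receptor subunits was called against controls with all arrays, but *GluRIIE* was higher in Ato LOF without Gal4/7 control array 1 (log2 0.55, adjusted p = 0.0159). Not called either was *VGlut*, the vesicular glutamate transporter, whose largest log2 fold change was 0.46 in Ato LOF (adjusted p = 0.203).

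Other genes of the same pathways were counted in lists, to be read beside the shares of all genes called: 1.96% higher and 0.526% lower in Gal4/7 x UASato, 6.34% higher and 10.1% lower in Ato LOF, and 1.70% higher and 2.21% lower in Sens GOF. Nothing particular to a list is read from its count. Of 35 genes of the active zone and the vesicle cycle, 31 were measured. In Gal4/7 x UASato 5 were higher and 0 lower, among them *Rph* (log2 1.46), which encodes the Rab3 effector rabphilin, the kinesin gene *unc-104* (0.83), which carries vesicle precursors along axons, *RhoGAP100F* (0.78) and *Cadps* (0.72), which encodes a dense-core vesicle priming factor. The count was 2 without Gal4/7 x UASato array 2 or array 3, and 1 with the replicate block. In Ato LOF 10 were lower and 1 higher, and 7 to 11 were lower without 1 array. They included *Cadps* (log2 −1.33), *Rph* (−1.32), *brp* (−1.25), which builds the dense projection of the active zone, and *RhoGAP100F* (−1.15), and the higher one was *Fife* (0.35), which was lost without ato-/- array 1 or 2. In Sens GOF *brp* (−1.07), *Liprin-alpha* (−0.68) and *dlg1* (−0.44) were lower, with 5 lower without cantonS array 1, 1 without Sens GOF array 1 or 3 and with arrays 1 and 2 averaged, and 0 without Sens GOF array 2. With atoGal4 x UASato 0 were called.

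Of 33 other ion channel genes, 31 were measured. Those called were *Teh1* (log2 0.56), an auxiliary subunit of the sodium channel, in Gal4/7 x UASato, *iav* (−0.30), *Ork1* (0.46) and *Irk2* (0.36) in Ato LOF, and *stj* (−0.66) and *Ca-alpha1T* (−0.49) in Sens GOF, both lost with arrays 1 and 2 averaged. The 1 call of Gal4/7 x UASato became 0 without its array 2 or 3 and 3 without array 1. Of the calls of Ato LOF, that of *iav* was lost without array 2 of any control line or of ato-/-, and those of *Ork1* and *Irk2* were both lost without ato-/- array 1 or 3. Of 17 genes that make or carry transmitters, 15 were measured. In Ato LOF 2 were lower, *Ace* (log2 −1.79), which breaks down acetylcholine, and *DAT* (−1.09), the dopamine transporter, and 2 were higher, *Gad1* (2.34) and *Gat* (1.80), the GABA transporter. Either pair was reduced to 1 gene without several single arrays, among them each of the ato-/- arrays, and without ato-/- array 3 or with the replicate block 0 were higher. *Ace* was also lower in Sens GOF (log2 −1.22, adjusted p = 0.00555, and log2 −1.09, adjusted p = 0.0461 with arrays 1 and 2 averaged).

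Of 10 pan-neuronal genes, 9 were measured. In Gal4/7 x UASato *futsch* (log2 1.25), a microtubule-binding protein of axons, *nrv3* (0.86), *CadN* (0.67) and *Nrt* (0.63) were higher. In Ato LOF 6 were lower, with *jeb* (−2.51), *Appl* (−2.50), *Nrt* (−1.92) and *elav* (−1.64) in front, and in Sens GOF 3 were, with 0 without array 1 or 2 and with both averaged. The median log2 fold change in Ato LOF was −1.54 over the 9 pan-neuronal genes, −0.19 over the 31 genes of the active zone and vesicle cycle and −0.01 over the 40 synaptic and channel genes. The lists differ in signal: the means of the 9 ran from 6.40 to 10.27, while 16 of the 40 lay at or below 4.92. A decrease may not be detectable in such dim probe sets, so no difference between lists is read from these medians. These lists were made with results of the series known, and *elav* is also a photoreceptor marker here.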

How the data were processed

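The deposited table holds log2 values that the authors made with RMA, a method of background correction, quantile normalization and summary of probes into probe sets. Its version and the genome build are not given in the sources used here, and the gcRMA and MAS5.0 values of the study were not used here. RMA forces equal distributions on the arrays (medians 5.38 to 5.52), and values of dim probe sets are compressed.

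The table has 18952 probe sets, and the tests used the 18769 that remain without the 183 Affymetrix controls. In the array's annotation, 13647 of these name 1 gene, 402 several and 4720 are unnamed here. All 40 members matched a gene of the RefSeq Release 6 table, which was used for neighbours and overlaps. Of the members, 13 have more than 1 probe set. Arrays were grouped by line from the labels. The replicate field of the second array of each control line reads 1 and its title 2, and the title was used. Beyond the values, arrays give no depth, and their number (2 or 3 a line) limits the precision.

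Tests were made with limma 3.58.1 (lmFit, then eBayes) under R 4.3.3, comparison by comparison on only the arrays concerned and without covariates. Benjamini-Hochberg adjustment ran over all tested probe sets. On simulated data the fits recovered 64.5% of genes changed 1.5-fold and 91.5% of those changed 2-fold for Ato LOF, and 32% and 81.5% for Sens GOF against atoGal4 x UASato. The simulated noise was independent between arrays with the spread seen within lines, and lines did not otherwise differ. Recovery in the real data may be lower. Plots came from matplotlib 3.10.9 and tables from pandas 2.3.3 and numpy 2.4.6, under Python 3.11.15. A marker sum is the log2 of the summed linear values of a list's measured genes.

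Values on every array are given for members called against controls and for the 6 with the highest mean, with controls as lowest, median and highest. Other members shown in full, such as *GluRIID*, *Rab3* and *VAChT*, were picked after their values had been seen. From each related list up to 4 called genes with the largest change are named. The members and lists were chosen with earlier results of these data known. The alternatives changed the normalization (quantiles once more), the probe sets (a filter at the median level, or any probe set of a gene), the arrays (nearest controls, or each array left out in turn), the model (robust variances with a trend, 1 fit for all 20 arrays, a block for the replicate number, a random block for the line), the limit (1.5-fold) and the test (the methods' t-test, here on RMA values). Averaging Sens GOF arrays 1 and 2 was planned for Sens GOF and added for its comparison with atoGal4 x UASato after the data were seen, as was leaving out cantonS array 1 with it.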

Additional observations from a re-analysis of the deposited data

Results flagged for a closer look

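In 4 of 80 groups of arrays (40 genes in the 6 Ato GOF and the 8 control arrays), 1 array lay far from the others by Dixon's criterion, which chance alone meets in about 1 in 20 groups. In the Ato GOF arrays, *nAChRalpha7* was at 4.843 on atoGal4 x UASato array 2, with the next array at 4.366 and the lowest at 4.131. In the controls, *Syn* was at 5.762 on cantonS array 1, where the next array was at 6.941 and the highest at 7.352. On the same cantonS array *nAChRbeta3* was the highest control at 8.237, with the next at 7.5 and the lowest at 7.024. *GluRIIE* was at 5.678 on Gal4/7 control array 1, with the next at 4.812 and the lowest at 4.314, and this array also had the highest summed muscle markers of the series at 10.89. With all arrays, none of the 4 genes was called against controls. Without cantonS array 1, *nAChRbeta3* was called higher in Gal4/7 x UASato (log2 0.75, adjusted p = 0.0272), and without Gal4/7 control array 1, *GluRIIE* was called higher in Ato LOF (log2 0.55, adjusted p = 0.0159).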

How the results depend on the processing

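Of 324 repeats of the calls of single genes under alternatives, 250 kept the call and 74 lost it, and 0 reversed direction. In Ato GOF, members called higher numbered 1 with the filter at the median level, 1 with a trend and robust variances, 3 in a single fit of all 20 arrays (*cac*, *nSyb* and *para*), 2 with quantile normalization applied again and 5 at an unadjusted p of the t-test. That t-test gave 8 for Gal4/7 x UASato and 2 for atoGal4 x UASato. In Ato LOF the lower members were 1 with a trend and robust variances, 1 against cantonS alone, 1 with the line as a random block, 1 with the limit of 1.5-fold and 5 at the t-test's unadjusted p, and the higher members were 0 with the filter, 0 against cantonS and 0 by the t-test with Benjamini-Hochberg adjustment. In Sens GOF 0 were lower against atoGal4 alone and 0 with arrays 1 and 2 averaged, and the t-test's unadjusted p gave 2 lower and 1 higher. For Sens GOF against atoGal4 x UASato, 3 were lower with the filter, 2 with a trend and 1 in the single fit, and 0 were higher with the filter, 0 in the single fit and 0 with arrays 1 and 2 averaged. For Ato LOF against Ato GOF 1 was higher with the filter and 3 in the single fit, and between control lines 1 gene differed in the single fit. The filter removes dim members, and the cause of the other changes was not tested.

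Same-numbered arrays were not taken as pairs, since their deviations correlated above 0.1 in 27 of 62 pairs (median 0.0855), where every pair was required to. Differently numbered arrays did so in 27 of 112 (median −0.04). With the replicate number as a block, 5 members were lower and 0 higher in Ato LOF, 0 lower in Sens GOF, 0 higher in Sens GOF against atoGal4 x UASato and 3 higher in Ato LOF against Ato GOF. Only the arrays whose number occurs in both groups inform that fit.

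Leaving out 1 array at a time gave 0 to 3 higher members in Ato GOF, 3 to 5 higher in Gal4/7 x UASato, 1 to 5 lower and 0 to 2 higher in Ato LOF, 0 to 2 lower in Sens GOF, 0 to 2 lower and 0 to 1 higher in Sens GOF against atoGal4 x UASato, and 2 to 8 lower and 2 to 5 higher in Ato LOF against Ato GOF. The difference between drivers gave 0 to 1 lower, the 1 being *GluRIID* without Gal4/7 control array 2 (log2 −1.25, adjusted p = 0.0411). All other such counts were 0. The share of all genes called was not counted for any of these alternatives, so nothing particular to the members is read from these counts.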
